A study of Homo sapiens with 80 samples.

Results

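The 10 genes described here are listed direct targets of canonical WNT signalling whose products feed back on the same pathway. They are the transcription factor genes LEF1, TCF7 and SP5, the intracellular regulators AXIN2 and NKD1, the secreted antagonists DKK1, DKK4 and NOTUM, and the membrane ubiquitin ligases RNF43 and ZNRF3. The rule names known WNT targets and uses no measured value, although it was written with earlier results of these data known, and all 10, of 43388 genes in the deposited tables, were found in both experiments.

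In canonical WNT signalling, a WNT ligand bound to Frizzled and LRP receptors stops the destruction complex, built on AXIN and APC with the kinase GSK3, from degrading beta-catenin, which then acts with TCF and LEF factors at target genes. Many of these targets encode inhibitors of the pathway: AXIN2 rebuilds the destruction complex, NKD1 binds Dishevelled, DKK1 and DKK4 bind the LRP co-receptors, NOTUM removes the lipid that WNT ligands need, and RNF43 and ZNRF3 clear Frizzled receptors from the cell surface. In the GiWi protocol (GSK3 inhibition, then WNT inhibition), CHIR99021 blocks GSK3 and turns the pathway on to make mesendoderm, and IWP2 then blocks PORCN, which WNT ligands need in order to be secreted.

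Human pluripotent stem cells were differentiated to cardiomyocytes, and the differentiations fall into a high and a low purity class by their share of cardiac troponin T-positive cells on day 16. In the multi-omic experiment, 25 libraries of a high purity differentiation (WTC11 induced pluripotent stem cells, passage 52) and 31 of a low purity differentiation (WTC11, passage 69) were made from separate wells at 8 time points between day 0 and day 16, every second day up to day 10 and then days 13 and 16. In the RNA-only experiment, 1 library was made at each of 4 stages in 6 differentiations: H9 embryonic stem cells (high at passage 58, low at passage 55), IMR90-4 induced pluripotent stem cells (high at passage 55, low at passage 75) and WTC11 (high at passage 81, low at passage 69). All cultures received 6 to 12 µM CHIR99021 on day 0, at a dose set for each line, and later 5 µM IWP2. With no untreated culture, effects of these compounds cannot be told apart from those of time or medium changes. In WTC11 the addition of IWP2 cannot be told apart from the removal of CHIR99021. In WTC11, IWP2 replaced CHIR99021 on day 2 and was taken off on day 4, with insulin from day 6. In H9 and IMR90-4, the CHIR99021 medium was changed on day 1, IWP2 was present from day 3 to day 5 in a mix with conditioned medium, and insulin came on day 7. Stage 1 is day 0, stage 2 is day 2 or 3, stage 3 is day 4 or 5 and stage 4 is day 6 or 7. The wells of the multi-omic experiment come from 1 differentiation per class, so the p-values below measure the spread between wells. Purity class, passage and differentiation cannot be told apart there.

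Library depth ran from 6579715 to 18143597 reads in the multi-omic experiment and from 17990882 to 40357968 in the RNA-only experiment. The summed level of 8 pluripotency markers lay between 5334 and 5950 TPM (read counts scaled for gene length and library depth) in the day 0 wells and between 31.7 and 48.6 on day 16. The summed level of 12 cardiomyocyte markers on day 16 was 13560 to 15500 TPM in high purity wells and 5061 to 7628 TPM in low purity wells, none of the 12 being at 0. These are bulk samples, in which fewer cells of a type and less RNA per cell cannot be told apart.

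Of 5 members whose promoters were searched, the 2 that hold TCAAAG, a form of the TCF/LEF core, close to the start are shown. Other forms of that core were not searched and are not marked. SP5 and DKK1 rose by more than 8 on the log2 scale by day 2, as did DKK4, whose promoter was not analysed here. LEF1, whose window held no match, also rose from near 0. Its mean went from 0.300 to 118 TPM in high purity wells and from 0.0959 to 136 TPM in low purity wells. A link between matches and the size of the rise was not tested. The letters searched were TCAAAG on either strand (CTTTGA when read on the other), and matches are in capitals. Each line gives the 250 bases before the gene's start, from the RefSeq promoter table for GRCh38.p14. The SP5 window is chr2:170715087-170715336 and the DKK1 window is chr10:52314031-52314280, both on the plus strand.

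SP5: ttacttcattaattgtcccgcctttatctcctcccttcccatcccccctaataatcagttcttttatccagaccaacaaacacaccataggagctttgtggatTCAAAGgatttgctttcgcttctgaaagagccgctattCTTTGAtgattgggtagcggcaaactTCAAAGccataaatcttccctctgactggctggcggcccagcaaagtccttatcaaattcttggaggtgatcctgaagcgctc

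DKK1: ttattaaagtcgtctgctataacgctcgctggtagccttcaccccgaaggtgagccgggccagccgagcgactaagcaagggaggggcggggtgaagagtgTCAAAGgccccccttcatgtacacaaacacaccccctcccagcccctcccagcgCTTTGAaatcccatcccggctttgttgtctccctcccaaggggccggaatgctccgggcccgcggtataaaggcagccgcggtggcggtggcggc

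SP5 had 3 matches, which begin 147, 109 and 83 bases before the start, and DKK1 had 2, at 149 and 95 bases. Of all 35116 promoter windows of this length, 11.2% held at least 1 match and 0.977% held 2 or more. Of the 10 members, 5 were searched, with 7 windows in all, and the windows of LEF1, TCF7 and RNF43 held no match. DKK4 was left out of the search. A match is a run of letters and not a measured binding site. On GRCh38.p14, SP5 lies at chr2:170715337-170718078, LEF1 at chr4:108047548-108168932, TCF7 at chr5:134108218-134148210 and DKK1 at chr10:52314281-52317657. NKD1 lies at chr16:50548396-50649249, RNF43 at chr17:58352500-58417534, AXIN2 at chr17:65528563-65561648, NOTUM at chr17:81952507-81961187, ZNRF3 at chr22:28883572-29057488 and DKK4 at chr8:42374063-42391322. All 10 are protein-coding genes.

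The question of days 0 to 2 in WTC11 was how the members changed after CHIR99021 was added. Of the 10 members, 9 rose in both differentiations, and the day 2 level of DKK1 was the highest of the 10 in high purity wells and that of DKK4 in low purity wells. A gene was called changed at a Benjamini-Hochberg adjusted p under 0.05 in limma (a linear model with moderated errors, on log2 TPM with 1 added) and a log2 fold change at or beyond 1 in either direction. By that rule 9 of 10 members were higher in high purity wells, where 16.7% of the 25664 genes tested were called and 9.66% were higher. In low purity wells 9 of 10 were higher, against 17.9% called among all genes. The members' median log2 fold change was 4.29 in high purity wells, where the median of all genes was 0, and 4.45 in low purity wells.

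DKK1, a secreted LRP antagonist, stood at 0, 0.189, 0 and 0.215 TPM in the 4 high purity wells of day 0 and at 1110, 1103, 1056 and 1072 TPM on day 2. In low purity wells it went from 0.151, 0, 0.246 and 0.174 TPM to 912, 897, 847 and 948 TPM. Each day 2 well was above every day 0 well, and the high purity wells of day 2 all lay above the low purity ones. The fold change was 10.00 ± 0.18 on the log2 scale in high purity wells (SE, 4 wells a day, adjusted p = 3.6e-38) and 9.60 ± 0.18 in low purity wells (adjusted p = 1.8e-37). With 4 reads on day 0 and 33392 on day 2, the ratio of DKK1 reads per depth in high purity wells was 9661, with a 95% interval of 3773 to 35460 that covers counting error only.

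DKK4, its relative with the same kind of target, had 3 reads over the high purity wells of day 0 and 8 over the low purity wells. On day 2 it reached 538, 513, 480 and 514 TPM in high purity wells. The low purity wells held 1055, 891, 914 and 1002 TPM, all above the high purity wells. The log2 fold change was 8.98 ± 0.18 in high purity wells and 9.61 ± 0.18 in low purity wells. NOTUM, an extracellular carboxylesterase, was the least abundant member on day 2, at 7.28, 7.57, 7.37 and 6.89 TPM in high purity wells and 4.41, 5.91, 6.13 and 6.42 TPM in low purity wells. Its day 0 libraries held 1 read in total in each differentiation, so that its increase of 3.06 (high) and 2.65 (low) on the log2 scale starts from the detection limit.

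SP5, a zinc-finger repressor, rose from 0, 0.384, 0 and 0.374 TPM to 441, 483, 453 and 403 TPM in high purity wells. In low purity wells it rose from 0, 0, 0 and 0.303 TPM to 334, 307, 312 and 331 TPM. Its log2 fold changes were 8.60 ± 0.19 and 8.21 ± 0.19. LEF1, which pairs with beta-catenin on DNA, was likewise near 0 on day 0, with 22 reads in high purity and 4 in low purity wells. On day 2 it stood at 134, 105, 108 and 125 TPM in high purity wells and at 141, 138, 125 and 140 TPM in low purity wells, and these ranges overlapped.

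TCF7 differed from LEF1 in that it was already present before CHIR99021. It went from 3.95 to 4.57 TPM in high purity wells to 21.3 to 24.2 TPM, and from 4.29 to 5.12 TPM in low purity wells to 31.4 to 40.2 TPM. The day 2 wells of the 2 differentiations did not overlap. The log2 fold changes were 2.11 ± 0.09 and 2.58 ± 0.09.

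AXIN2 was the member with the highest level on day 0, at 16.4, 18.1, 18.6 and 19.6 TPM in high purity wells and 18.6, 20.5, 19.9 and 18.3 TPM in low purity wells. By day 2 it was 126 to 144 TPM in high purity and 127 to 134 TPM in low purity wells, a log2 change of 2.79 ± 0.10 and 2.53 ± 0.10. NKD1, the Dishevelled-binding member, rose further from a lower start, from a mean of 1.79 ± 0.17 to 105 ± 6.84 TPM in high purity wells and from 1.54 ± 0.25 to 132 ± 5.05 TPM in low purity wells (SD, n = 4).

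Of the ubiquitin ligases, RNF43 rose by 3.35 ± 0.14 and 3.29 ± 0.14 on the log2 scale, reaching 16.1 to 21.4 TPM in high purity and 14.5 to 17.2 TPM in low purity wells. Its paralog ZNRF3 was the member that was not called. It went from 9.38, 9.50, 10.2 and 9.74 TPM to 22.3, 21.1, 18.1 and 19.8 TPM in high purity wells, a log2 change of 0.96 with an interval of 0.82 to 1.11. Its low purity change was 0.66, with an interval of 0.51 to 0.80. Both passed the adjusted p (1.1e-15 and 1.0e-10) and missed the fold, and the wells of day 0 and day 2 did not overlap in either differentiation. With a smaller pseudocount (0.1), no filter on low TPM, edgeR on recovered reads, or high purity well 3 of day 2 left out, the high purity change of ZNRF3 was 1.02, 1.02, 1.01 and 1.01.

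**Figure D1:**
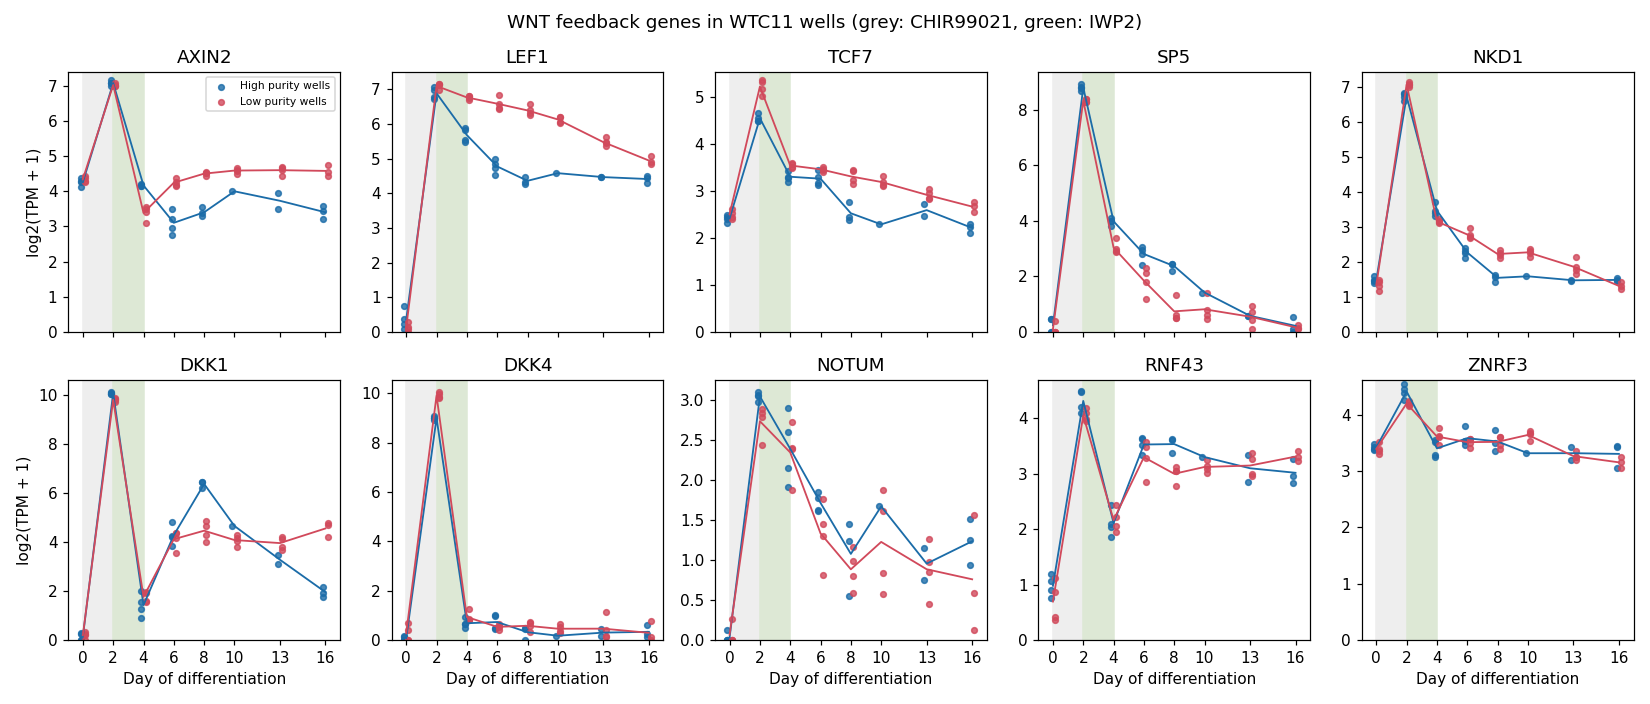
Each panel plots 1 member in WTC11 wells, with day of differentiation on the x axis and log2(TPM + 1) on the y axis. Each point is 1 well (blue, high purity; red, low purity), lines join group means, and grey and green shading mark the days with CHIR99021 and IWP2. All 10 members stand highest on day 2 in both differentiations, and LEF1, AXIN2 and DKK1 separate by class afterwards.

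Other genes of the pathway moved in these days as well. Of 14 other WNT targets, 10 rose and 1 fell in high purity wells, and 8 rose and 1 fell in low purity wells. The mesoderm factor TBXT rose by 9.47 and 9.09 on the log2 scale, the endomesoderm factor MIXL1 by 8.00 and 8.06, and CDX1, a caudal-type homeobox gene, by 6.76 in high purity wells. Of the R-spondins, which enhance WNT signals, and the secretion genes, RSPO3 rose by 7.03 and 7.60 and WLS, the carrier of WNT ligands, by 5.32 and 5.02. Of 17 receptor genes tested, 4 rose and 4 fell in each differentiation, among them LGR5, an R-spondin receptor (4.75 and 5.86), FZD10 (4.05 and 3.85) and FZD5 (-3.78 and -4.51). Of 14 transducer and destruction complex genes, none rose and 2 fell, and these were TCF7L1 (-1.70 and -2.90) and TCF7L2 (-1.14 and -1.50), TCF-family factors. Of 15 other antagonists tested, 3 rose and 5 fell in high purity wells and 6 rose and 6 fell in low purity wells, with CER1 higher (6.61 and 6.48) and SFRP1 lower (-3.37 and -3.31).

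From day 2 to day 4, with IWP2 in the medium in place of CHIR99021, 9 of the 10 members fell in high purity wells and 7 in low purity wells, and none rose. Among all genes 13.7% were called in high purity wells (6.96% lower) and 16.9% in low purity wells (8.7% lower). The members' median log2 fold change was -2.67 in high purity wells, where the median of all genes was 0.03, and -2.81 in low purity wells, where it was 0. The members differed widely in what was left on day 4: DKK4 and DKK1 kept under 1% of their day 2 mean, and LEF1, NOTUM and ZNRF3 kept over 40%.

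DKK4 stood at 0.908, 0.379, 0.571 and 0.575 TPM in the high purity wells of day 4 and at 0.727, 1.41, 0.797 and 0.755 TPM in the low purity wells. That was 0.119% ± 0.043 and 0.0955% ± 0.034 of its day 2 mean (SD, n = 4). DKK1 stood at 2.95, 0.876, 1.37 and 1.94 TPM and at 2.80, 2.88, 1.92 and 2.02 TPM, or 0.164% ± 0.082 and 0.267% ± 0.056. These levels rest on 5 to 27 reads a well, and DKK1 in high purity wells was still above its start, with 59 reads against 4 on day 0. NOTUM, the secreted member with the lowest peak, kept 61.0% ± 22.9 in high purity and 73.4% ± 21.1 in low purity wells. Its changes of -0.76 (adjusted p = 0.010) and -0.44 (adjusted p = 0.15) on the log2 scale were not called, and its wells of days 2 and 4 overlapped in low purity wells.

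SP5 kept 3.32% ± 0.28 in high purity wells, at 13.1 to 16.1 TPM, and 2.26% ± 0.45 in low purity wells, at 6.29 to 9.40 TPM. TCF7 kept 39.6% ± 2.89 and 29.2% ± 1.12, and fell by 1.35 and 1.73 on the log2 scale. LEF1 kept far more in low purity than in high purity wells. It stood at 58.2, 45.6, 43.5 and 55.2 TPM in high purity wells, 42.9% ± 6.09 of its day 2 mean, and at 111, 103, 106 and 112 TPM in low purity wells, 79.4% ± 3.18. Its change was -1.32 ± 0.11 in high purity wells and -0.39 ± 0.11 in low purity wells, where it was not called.

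AXIN2 kept 12.6% ± 0.24 in high purity wells and 7.35% ± 1.02 in low purity wells. Its low purity wells, at 7.63, 10.6, 10.2 and 9.57 TPM, were all below their own day 0 level, at 0.492 of the day 0 mean, and the high purity wells stood at 0.932 of theirs. NKD1 kept 9.63% ± 1.38 and 5.95% ± 0.25. RNF43 kept 17.6% ± 4.04 and 22.5% ± 4.27. ZNRF3 kept 47.3% ± 5.59 in high purity wells, where it fell by 1.12, and 64.8% ± 5.97 in low purity wells, where its change of -0.64 was not called.

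**Figure D2:**
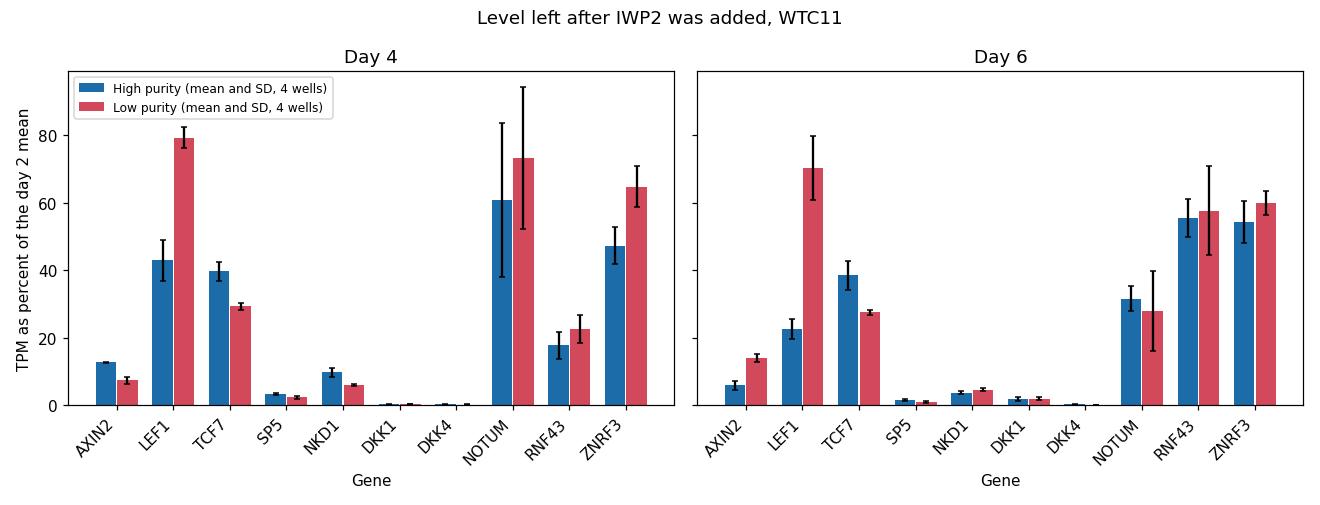
Bars give the mean TPM of each member on day 4 (left) and day 6 (right) as a percent of its own day 2 mean in WTC11, with the SD over 4 wells (blue, high purity; red, low purity). DKK1, DKK4 and SP5 stand near 0 on day 4, and LEF1 stands at 42.9% in high purity and 79.4% in low purity wells.

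The other WNT targets also fell in part: 6 of 14 were lower and 4 higher in high purity wells, and 7 lower and 4 higher in low purity wells. MIXL1 fell by 7.02 and 7.04 on the log2 scale and TBXT by 6.50 and 7.25. RSPO3 fell by 5.86 and 4.82, and FZD10 by 3.97 and 3.78. Over the same days SFRP5, a secreted Frizzled-related antagonist, rose by 6.74 and 4.55. Of the receptors tested, 6 rose and 1 fell in high purity wells and 7 rose and 4 fell in low purity wells, with FZD5 up by 5.33 in high purity wells and LGR4, an R-spondin receptor, up by 3.80 in low purity wells.

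Whether the members' changes differed between the WTC11 differentiations was tested as an interaction. For the change from day 0 to 2, limma called 0 of 10 members, with 5 at an unadjusted p under 0.05, and edgeR on recovered reads also called 0. Among all genes 3.22% were called, with 28.9% at an unadjusted p under 0.05. For the change from day 2 to 4 limma called 0, with 7 at an unadjusted p under 0.05, edgeR called 0, and 8.93% of all genes were called, with 38.1% at an unadjusted p under 0.05. The largest of these differences, high minus low, was that of LEF1 from day 2 to 4, at -0.94 on the log2 scale with an interval of -1.24 to -0.64 (adjusted p = 2.1e-06). It was -1.00 without high purity well 2 of day 2 and -1.00 without high purity well 1 of day 4, and was called there. With a pseudocount of 0.1 the day 0 to 2 difference of LEF1 was -1.04 and called, on 22 and 4 reads on day 0.

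From day 4 to day 6, after IWP2 was removed, 5 members were called in high purity wells (2 higher, 3 lower, where 7.96% of all genes were called, 4.53% higher and 3.44% lower) and 4 in low purity wells (2 higher, 2 lower, where 6.61% were, 3.87% higher and 2.74% lower). DKK1 and RNF43 rose in both. DKK1 went to 26.8, 17.7, 13.4 and 18.2 TPM in high purity wells and to 19.5, 19.4, 17.1 and 10.9 TPM in low purity wells, a log2 rise of 2.77 ± 0.18 and 2.29 ± 0.18. RNF43 rose by 1.34 ± 0.14 and 1.07 ± 0.14, to 9.11 to 11.5 TPM and 6.18 to 10.9 TPM. SP5 went on falling, by 1.24 and 1.22. In low purity wells NOTUM fell by 1.03, and both its call and that of RNF43 were lost without well 3 of day 4 (-0.91 and 0.99) or well 2 of day 6 (-0.86 and 0.99). LEF1 changed by -0.98 in high purity wells, just short of the fold, which it passed with a pseudocount of 0.1 (-1.01), in edgeR (-1.01) and without well 3 of day 4 (-1.08), well 1 of day 6 (-1.01) or well 3 of day 6 (-1.02). In low purity wells it changed by -0.24 (adjusted p = 0.072).

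AXIN2 moved in opposite directions over these days. In high purity wells it fell to 10.3, 6.80, 5.71 and 8.21 TPM, a log2 change of -1.13 ± 0.10, and in low purity wells it went up to 17.0, 16.7, 18.3 and 19.9 TPM, a change of 0.80 ± 0.10 that passed the adjusted p (4.5e-09) and missed the fold. The difference between these changes was -1.93 ± 0.14 (adjusted p = 2.7e-15, limma), where 7.51% of all genes were called. AXIN2 was 1 of 10 members called in that comparison, which was added after the values had been seen. NKD1 also fell in high purity wells alone by the call rule (-1.25, against -0.42), and the difference of -0.84 passed the adjusted p (8.8e-08) and not the fold, which it reached in edgeR (-1.00).

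High and low purity wells were then compared day by day. LEF1 was lower in high purity wells on days 4, 6 and 8, AXIN2 was lower on day 6, SP5 and DKK1 were higher on day 8, and DKK1 was lower on day 16. The members' median log2 difference stayed between -0.14 on day 13 and 0.20 on day 2. On day 0 no member was called by limma (1 at an unadjusted p under 0.05, 0 called by edgeR on recovered reads) and 1.07% of all genes were, with 25.7% at an unadjusted p under 0.05. The day 0 wells were apart for 0 of 10 members and for 21.8% of all genes. On day 2 again no member was called (6 at an unadjusted p under 0.05, 0 by edgeR) and 5.32% of all genes were, with 44.0% at an unadjusted p under 0.05. The wells of 7 members did not overlap, as for 34.0% of all genes. High purity wells were above low purity wells for SP5, DKK1, NOTUM and ZNRF3 and below for TCF7, NKD1 and DKK4. The differences that passed the adjusted p without the fold were those of DKK4 (-0.84), TCF7 (-0.61), SP5 (0.54), ZNRF3 (0.28) and NKD1 (-0.27).

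On day 4 LEF1 was the 1 member called, at -1.08 ± 0.11 (adjusted p = 1.3e-11), where 7.84% of all genes were called. It was lower in every high purity well, and the call was lost, at -0.98, without high purity well 3. SP5 (0.95) and AXIN2 (0.79) were higher in every high purity well and missed the fold. SP5 passed it without high purity well 1 (1.00) or low purity well 4 (1.08) and in edgeR (1.03). The wells of 5 members were apart, as for 31.7% of all genes.

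On day 6 LEF1 and AXIN2 were called, and 8.8% of all genes. LEF1 stood at 30.6, 22.2, 27.9 and 25.5 TPM in high purity wells and at 95.4, 85.3, 87.9 and 114 TPM in low purity wells, a log2 difference of -1.82 ± 0.11 (adjusted p = 1.2e-18). AXIN2 differed by -1.15 ± 0.10 (adjusted p = 2.5e-13), in the opposite direction to its day 4 difference. SP5, at 0.93, was higher in high purity wells and was called without high purity well 3 (1.05), low purity well 2 (1.07) or low purity well 4 (1.02) and in edgeR (1.18). The wells of 4 members were apart, as for 30.7% of all genes.

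On day 8 LEF1, SP5 and DKK1 were called, and 12.2% of all genes. LEF1 stood at 21.3, 19.2 and 18.1 TPM in high purity wells and at 93.8, 78.9, 76.2 and 84.1 TPM in low purity wells, a log2 difference of -1.81 ± 0.11. DKK1 stood at 87.4, 87.2 and 72.0 TPM in high purity wells and at 15.1, 18.6, 28.4 and 24.6 TPM in low purity wells, a difference of 2.13 ± 0.20. SP5 stood at 4.50, 4.48 and 3.53 TPM against 0.423, 1.51, 0.402 and 0.534 TPM, a difference of 1.76 ± 0.21 that rests on 4 to 15 reads in each low purity well. RNF43, at 0.74, was higher in every high purity well, and AXIN2 (-0.88, or -1.10 and called without TMM factors), TCF7 (-0.58) and NKD1 (-0.51) were lower in every one. In all, the wells of 7 members were apart, as for 42.2% of all genes.

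DKK1 thus had a later peak on day 8 in high purity wells, and by day 16 its order was turned. On day 13, with 2 high purity wells, it stood at 7.57 and 9.96 TPM against 11.8 to 17.5 TPM in 4 low purity wells. On day 16 it stood at 3.53, 2.42 and 2.74 TPM against 17.5, 24.7 and 26.3 TPM, a log2 difference of -2.45 ± 0.21 (adjusted p = 1.6e-13), and it was the 1 member called, where 13.4% of all genes were. On day 13 limma called no member (5 at an unadjusted p under 0.05, 0 by edgeR), where 10.8% of all genes were called, with 43.0% at an unadjusted p under 0.05. The wells of 5 members were apart on each of days 13 and 16, as for 47.5% and 47.6% of all genes. Between days 8 and 16 the change of DKK1 differed by -4.58 ± 0.29, high minus low (adjusted p = 1.3e-16), that of LEF1 by 1.48 ± 0.17 (adjusted p = 1.9e-09) and that of SP5 by -1.68 ± 0.30 (adjusted p = 3.0e-05). That comparison, in which 9.17% of all genes were called, was also added after the values had been seen, and the SP5 difference was not called by edgeR (-1.93, adjusted p = 0.28). LEF1 in low purity wells came down to 32.7, 29.0 and 27.9 TPM on day 16, still above the 18.8, 20.6 and 21.4 TPM of high purity wells. AXIN2 stayed lower in every high purity well from day 6 to day 16, and its day 16 difference of -0.98 passed the fold without TMM factors (-1.18), with a pseudocount of 0.1 (-1.03), in edgeR (-1.03), and without high purity well 2 or 3 (-1.01 and -1.01) or low purity well 2 (-1.05). NOTUM on day 16 differed by 0.63 (adjusted p = 0.076) and was called with a pseudocount of 0.1 (1.44) and without low purity well 3 (1.04), on 1 to 16 reads a well.

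**Figure D3:**
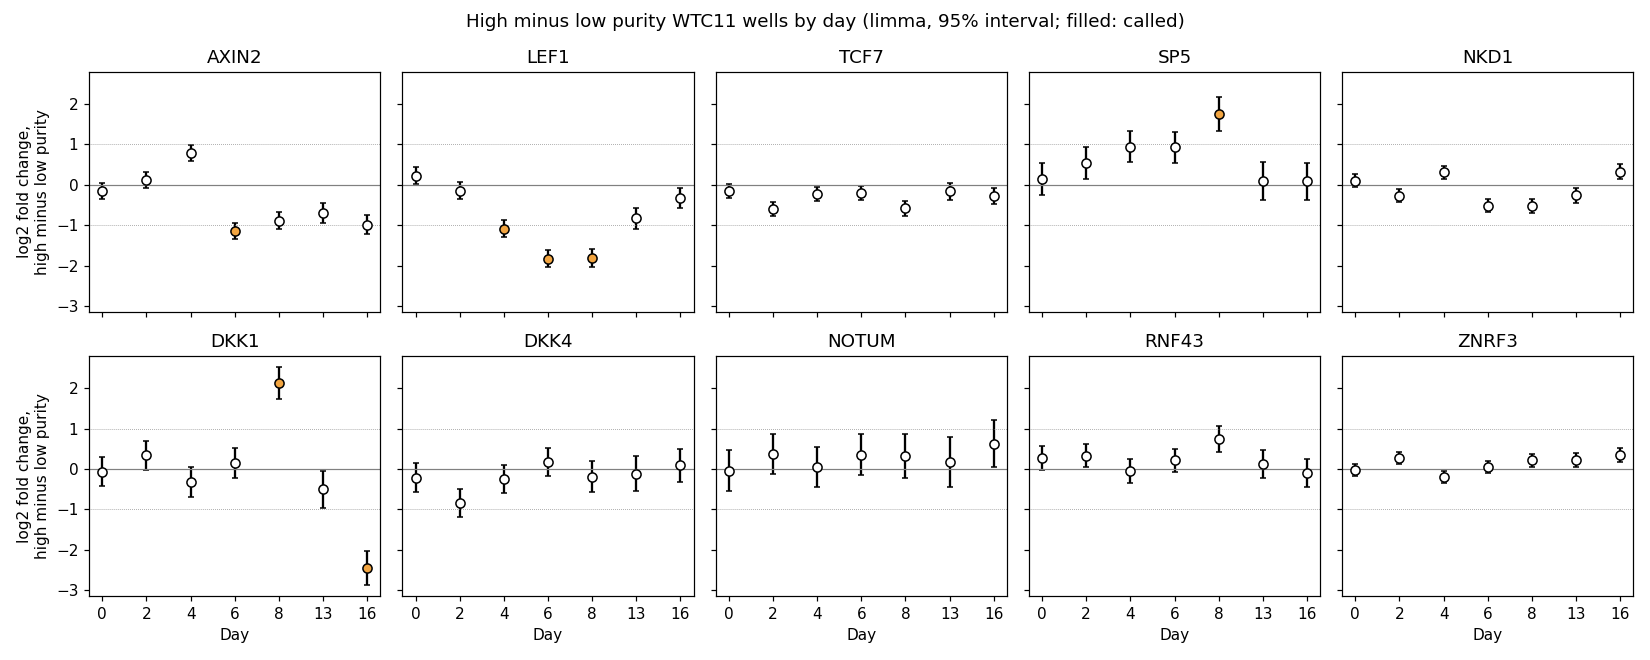
Each panel plots 1 member's log2 fold change between high and low purity WTC11 wells (y axis) against day (x axis), with the 95% interval of limma, and filled points mark calls. DKK1 goes from 2.13 on day 8 to -2.45 on day 16, and LEF1 is below -1 on days 4 to 8.

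Markers of other cell types moved with these comparisons. The summed level of 8 fibroblast and stromal markers was 1402 to 1477 TPM in low purity wells and 359 to 529 TPM in high purity wells on day 4, 3125 to 4848 against 865 to 1164 TPM on day 6, 4832 to 5823 against 558 to 660 TPM on day 8 and 9701 to 13180 against 576 to 691 TPM on day 16. Of these 8 markers, 5 were called lower and 1 higher in high purity wells on days 4 and 6, 6 were called lower on day 8 and 7 on day 16, and DCN was at 0 in every high purity well of day 4. The 12 cardiomyocyte markers summed to 1875 to 2088 TPM in low purity wells of day 4 and 199 to 283 TPM in high purity wells, and 10 of them were called lower in high purity wells that day. On day 8 the order was the other way, with 4596 to 7153 TPM in low purity and 12220 to 14430 TPM in high purity wells. The 6 epicardial markers summed to 225 to 273 TPM in low purity wells that day, against 3.63 to 7.45 TPM in high purity wells. The 6 endoderm markers summed to 764 to 1480 TPM in high purity wells and 208 to 356 TPM in low purity wells on day 8, and on day 16 to 77.6 to 479 TPM and 465 to 1244 TPM, ranges that overlap. On day 8, 4 of them were called higher and 1 lower in high purity wells, and on day 16, 3 higher and 1 lower. The 8 pluripotency markers summed to more in every high purity well on day 4 (2002 to 2665 against 1191 to 1314 TPM), day 6 (1130.0 to 1324 against 448 to 611 TPM) and day 8 (405 to 550 against 267 to 316 TPM), with 4, 3 and 1 called higher. On day 4 the 6 neuroectoderm markers also summed to more in high purity wells (462 to 554 against 196 to 235 TPM). Of these 6, 4 were under 1 TPM in every well of each class. The 7 endothelial markers summed to less in high purity wells that day (210.0 to 275 against 360 to 378 TPM). Of these 7, 4 were under 1 TPM in every low purity well and 2 in every high purity well. The part of these cell types in the LEF1, AXIN2, SP5 and DKK1 differences was not tested.

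Other pathway genes differed between the same wells. Of 6 R-spondin and secretion genes, 5 were called lower in high purity wells on day 6 and 4 on day 8. RSPO1 had a mean of 23.3 ± 8.01 TPM in low purity and 0.134 ± 0.111 TPM in high purity wells on day 6, a log2 difference of -4.26, and the difference was the other way on day 4, at 2.71 ± 0.47 against 0.0528 ± 0.0612 TPM. RSPO2 was lower on days 4, 6, 8 and 16, by 1.98, 3.70, 4.99 and 5.80 on the log2 scale. Of 17 receptor genes, 3 were higher and 0 lower on day 4. FZD5 had a mean of 218 ± 32.3 TPM in high purity and 40.0 ± 5.77 TPM in low purity wells that day. Of 15 antagonists outside the members, 4 were higher and 0 lower on day 4, among them SFRP1, SFRP2 and SFRP5 (1.67, 2.40 and 1.76). On day 16, 1 was higher and 7 lower, among them SFRP2 (-5.65), DKK2 (-3.10) and FRZB (-3.02). Of the 14 transducer and destruction complex genes, 0 were called on days 4, 6, 8 and 16 by limma, with 6 to 9 at an unadjusted p under 0.05. Among all genes 43.3%, 46.2%, 49.6% and 48.5% had an unadjusted p under 0.05 on those days. By limma 7.84%, 8.8%, 12.2% and 13.4% of all genes were called.

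The RNA-only experiment shows the early changes of the members across 3 lines, with 1 library per stage and differentiation. From stage 1 to 2, edgeR's quasi-likelihood test with differentiation as a block called 9 of 10 members, all higher, where 25.6% of the 23848 genes tested were called and 14.8% were higher. ZNRF3, at 0.49 ± 0.15, was again the member not called. RNF43, though called, did not rise in every differentiation: it went from 0.445 to 0.323 TPM in high purity IMR90-4. The members' median log2 fold change was 4.85, and that of all genes 0.03. From stage 2 to 3, 6 members fell (AXIN2, SP5, NKD1, DKK1, DKK4 and NOTUM), where 6.86% of all genes were called and 3.29% were lower, with a median of -1.69 against 0. From stage 3 to 4 edgeR called none, with 0 at an unadjusted p under 0.05, limma on TPM called none, and 3.72% of all genes were called, with 20.6% at an unadjusted p under 0.05.

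Some of these calls were lost when a line was left out. Without the IMR90-4 libraries 3 members were called from stage 2 to 3, and SP5 (-3.86, adjusted p = 0.12), DKK4 (-6.23, adjusted p = 0.070) and NOTUM (-1.46, adjusted p = 0.24) were lost. Without the WTC11 libraries 2 were called, and AXIN2 (-1.18, adjusted p = 0.051), SP5 (-1.99, adjusted p = 0.24), DKK4 (-1.21, adjusted p = 0.15) and NOTUM (-0.96, adjusted p = 0.31) were lost.

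DKK4 and DKK1 differed widely between lines at stage 2. DKK4 stood at 220 TPM in the high and 57.0 TPM in the low purity WTC11 differentiation, at 1.14 and 2.51 TPM in IMR90-4, and at 0.617 and 0.425 TPM in H9, from 33 and 20 reads. DKK1 stood at 1120 and 429 TPM in WTC11, at 85.3 and 78.5 TPM in IMR90-4 and at 44.3 and 14.6 TPM in H9. WTC11 was above both other lines in each class for both genes. NKD1 followed the same order of WTC11 above the others, at 30.0 and 19.5 TPM against 2.59 to 5.39 TPM in the other lines. AXIN2, SP5, RNF43 and ZNRF3 also had WTC11 highest in each class at stage 2, and LEF1, TCF7 and NOTUM did not. The WTC11 libraries of stage 2 were taken on day 2, as CHIR99021 was replaced, and those of H9 and IMR90-4 on day 3, after the change of CHIR99021 medium on day 1. Line and schedule cannot be told apart here.

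The stage of the highest level was not the same in every line for LEF1, TCF7, DKK4, NOTUM, RNF43 and ZNRF3. In IMR90-4 LEF1 went from 9.19 TPM at stage 2 to 42.5 TPM at stage 3 in the high purity differentiation and from 4.24 to 13.3 TPM in the low purity one. In the other 4 differentiations it was highest at stage 2, at 48.0 (high) and 75.4 TPM (low) in H9 and 54.3 and 28.1 TPM in WTC11. NOTUM was higher in IMR90-4 (9.65 and 12.7 TPM) and WTC11 (7.90 and 10.8 TPM) than in H9 (1.10 and 1.02 TPM) at stage 2, an order unlike that of the dickkopf genes. RNF43 was highest at stage 2 in WTC11 (4.63 and 8.05 TPM) and H9 (1.57 and 1.28 TPM) and at stage 4 in IMR90-4 (1.45 and 1.64 TPM). ZNRF3 was highest at stage 1 in the low purity H9 and both IMR90-4 differentiations, and its 24 values lay between 2.54 and 7.18 TPM. NOTUM was highest at stage 3 in high purity H9 (1.87 TPM). TCF7 stayed between 0.799 and 3.44 TPM throughout, and in low purity H9 it was highest at stage 4 (2.61 TPM), as was DKK4 (0.464 TPM, on 20 reads).

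SP5 in H9 separated the classes at every stage after the start. It stood at 26.8 TPM in the high purity and 3.46 TPM in the low purity differentiation at stage 2, and at 11.7 and 0.313 TPM at stage 3. In IMR90-4 the order was the other way, at 30.2 and 48.7 TPM and then 5.89 and 12.7 TPM. In WTC11 it stood at 178 and 130 TPM at stage 2, and the low purity library was the higher one at stage 3 (5.14 and 6.24 TPM) and stage 4 (1.66 and 3.86 TPM). AXIN2 at stage 2 likewise differed in order, at 24.9 against 11.9 TPM in H9, 13.6 against 12.8 TPM in IMR90-4 and 35.5 against 61.1 TPM in WTC11.

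**Figure D4:**
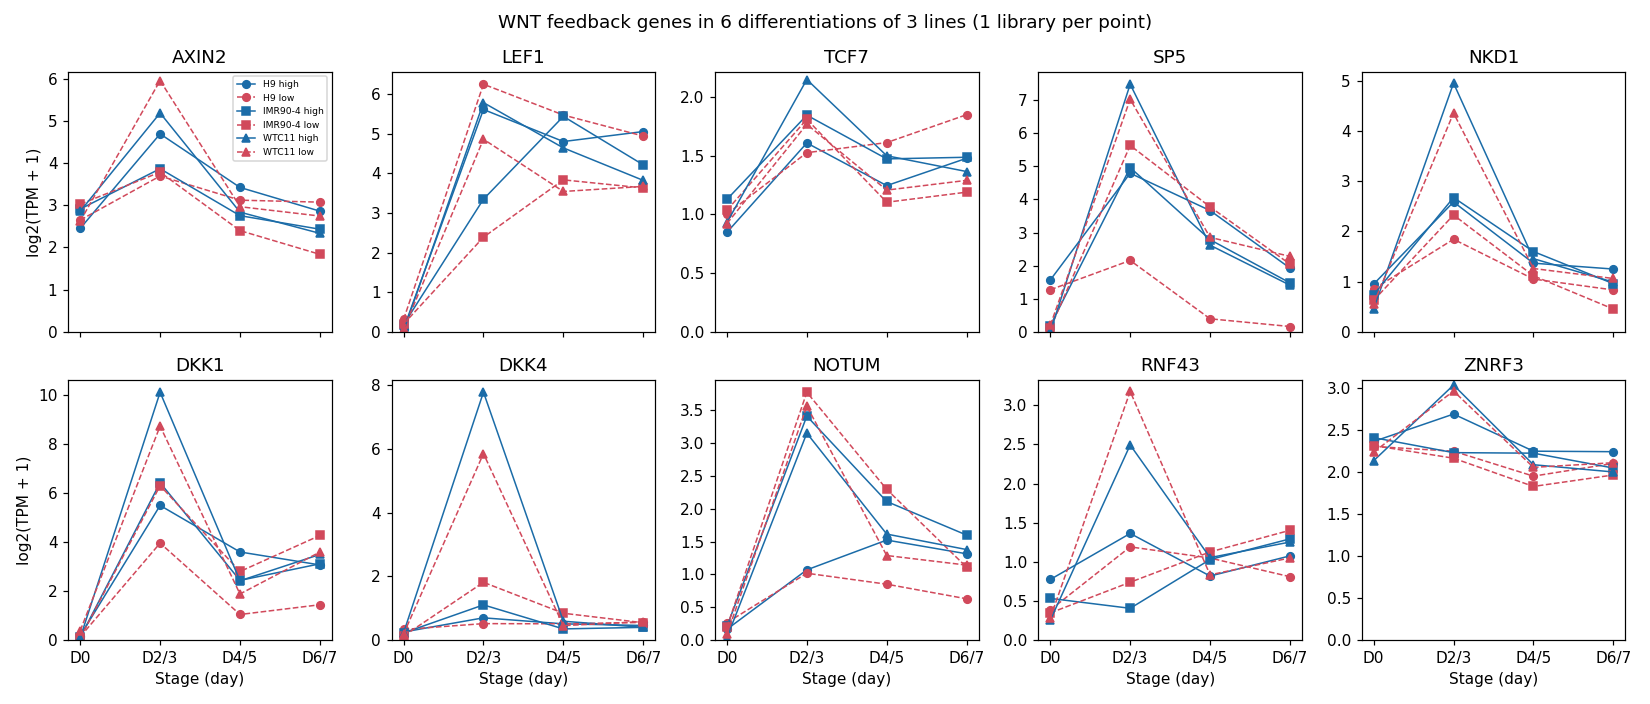
Each panel plots 1 member in the 6 RNA-only differentiations, with stage on the x axis (day in H9 and IMR90-4 after the slash) and log2(TPM + 1) on the y axis; each point is 1 library, colours mark purity class and symbols mark the line. DKK4 rises to 220 and 57.0 TPM in WTC11 and stays at or under 2.51 TPM in the other lines, and LEF1 peaks at stage 3 in both IMR90-4 differentiations.

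Over the 3 lines, neither the members nor any other gene was called between high and low purity, so the absence of calls is not particular to the members. With line as a block, edgeR called 0 of 10 members at each of the 4 stages, with 0, 1, 0 and 2 at an unadjusted p under 0.05, limma on TPM also called 0, and 0.0% of all genes were called by edgeR at any stage. Among all genes 1.48%, 7.95%, 7.54% and 12.1% had an unadjusted p under 0.05 at the 4 stages. The members at an unadjusted p under 0.05 were NKD1 at stage 2 (0.63 ± 0.24, adjusted p = 0.58), and NKD1 (0.65 ± 0.25, adjusted p = 0.34) and NOTUM (0.86 ± 0.29, adjusted p = 0.30) at stage 4. Without H9, LEF1 at stage 3 was called, at 1.31 (adjusted p = 0.018). The change from stage 1 to 2 and from 2 to 3 did not differ between classes by the call rule either: edgeR called 0 of 10 members in both, with 0 at an unadjusted p under 0.05, limma called 0, and 0.0% of all genes were called, with 2.69% and 3.03% at an unadjusted p under 0.05.

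Counted by line, the high purity library of stage 2 was above the low purity library in all 3 lines for 4 members, which were TCF7, NKD1, DKK1 and ZNRF3, and below in all 3 for none. Among all genes 19.3% were higher and 11.5% lower in every line at that stage. At stage 3, 2 members were higher in every line (21.6% of all genes) and none lower (7.37%). At stage 4, 2 were higher, LEF1 and NOTUM, and 1 lower, DKK4 (14.8% and 17.4%). LEF1 then stood at 32.3 against 29.8 TPM in H9, 17.6 against 11.4 TPM in IMR90-4 and 13.2 against 11.8 TPM in WTC11. At stage 1 none was higher and 1 lower (10.9% and 10.0%). NKD1, at 5.01 against 2.59 TPM in H9, 5.39 against 4.02 TPM in IMR90-4 and 30.0 against 19.5 TPM in WTC11, was higher in every line at stages 2 and 3.

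Set beside the wells of the multi-omic experiment, the WTC11 differentiations of the RNA-only experiment had some members in the same order and others not. The libraries were made with another kit (total RNA in place of poly(A) RNA) and another high purity passage, and levels are not compared across the tables. DKK1 and SP5 were higher in high purity on day 2 in both experiments. On days 4 and 6 the order of SP5 differed: the wells had means of 14.8 (high) against 7.26 TPM (low) and 6.08 against 2.73 TPM, and RNA-only WTC11 had 5.14 against 6.24 TPM and 1.66 against 3.86 TPM. DKK4 was higher in low purity wells on day 2 of the multi-omic experiment, at 966 ± 76.4 against 511 ± 23.8 TPM (SD, n = 4), and higher in high purity in the RNA-only experiment, at 220 against 57.0 TPM. NKD1 and TCF7 were also higher in low purity on day 2 in the multi-omic wells and higher in high purity in RNA-only WTC11. LEF1 on day 4 was higher in low purity wells, at 108 ± 4.32 against 50.6 ± 7.18 TPM, and higher in high purity in RNA-only WTC11, by 1.10 on the log2 scale. On day 6 LEF1 was again higher in low purity wells, at 95.7 ± 13.1 against 26.5 ± 3.56 TPM. In RNA-only WTC11 the high purity library was slightly higher that day, at 13.2 against 11.8 TPM. AXIN2 on day 2 overlapped between classes in the wells and was higher in low purity in RNA-only WTC11 (61.1 against 35.5 TPM). On day 4 it was higher in high purity wells, at 17.0 ± 0.33 against 9.50 ± 1.32 TPM, and lower in high purity in RNA-only WTC11, at 6.14 against 6.81 TPM. The AXIN2 order on day 6 was low above high in both, at 18.0 ± 1.44 against 7.75 ± 1.98 TPM in the wells and at 5.70 against 4.04 TPM in RNA-only WTC11. The RNA-only values have no replicate within the line.

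The members were also compared in shape. Across the 16 multi-omic groups, the Pearson correlation of each member's mean log2(TPM + 1) with the mean profile of the other members ran from 0.633 for RNF43 and 0.643 for LEF1 to 0.923 for SP5 and 0.943 for NKD1. Across the 24 RNA-only libraries it ran from 0.536 for LEF1 to 0.966 for NKD1. Of 19621 genes outside the lists, the 6 whose profile was most like the members' mean were DNAH7 (0.978 over the 16 groups and 0.676 over the 24 libraries), BBS9 (0.974 and 0.448), EFCAB1 (0.967 and 0.690), WDFY3 (0.96 and 0.784), APOBEC3G (0.959 and 0.646) and LINC02296 (0.959 and 0.758). In high purity wells the mean of LINC02296 went from 0.0288 TPM on day 0 to 21.5 TPM on day 2 and 2.22 TPM on day 4. The points of a profile share the day 2 peak, so these values describe likeness over few points.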

How the data were processed

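Expression was measured in 56 multi-omic libraries (poly(A) RNA) and 24 RNA-only libraries (total RNA). Per the submitters' processing notes, STAR 2.5.3a, featureCounts 2.0.3 and the build hg38 were used. The deposited tables hold read counts per gene and TPM (counts scaled for gene length and depth) made by the authors, and each sample's column was found by the column name in the labels. Of the RNA-only count file, 36 broken lines were left out.

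In the multi-omic count table, 0 of 56 columns held the reads behind the TPM column of the same name (50 TPM columns matched a column of another name, 6 none). The nearest WTC11 RNA-only library was of the same day for 32 of 32 TPM columns tested and 6 of 32 count columns. The multi-omic tests therefore used the deposited TPM. Whole reads were recovered from TPM for 37194 genes (100.0% of values above 0 within 0.02 reads of a whole number), the other genes holding at most 0.247% of TPM, and these recovered reads gave the read numbers.

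Multi-omic TPM were scaled with TMM factors, genes at 1 TPM or more in at least 3 libraries were kept (25664, all 10 members among them), and log2(TPM + 1) was fitted with limma 3.58.1 on 16 group means (40 residual degrees of freedom); fold changes are on that scale, which understates low genes. RNA-only counts were fitted with edgeR 4.0.16 (TMM, low counts filtered, quasi-likelihood test, 23848 genes). A call needed a Benjamini-Hochberg adjusted p under 0.05 over all genes together with a log2 fold change at or beyond 1 in either direction. Day 10 had 1 high purity library and was not tested. Tests were run on simulated data first.

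The members and gene lists were chosen with earlier results of these data known. Every member is named; of the other pathway genes, each list names from at most 3 called genes of largest change in a comparison; the 6 most alike genes follow by correlation. The differences between differentiations in the day 4 to 6 and day 8 to 16 changes were added after values were seen. Alternatives were the DESeq2 1.42.0 test on RNA-only counts, RLE size factors (another scaling method), no TMM and a pseudocount of 0.1. Others were no filter, adjusted p alone, edgeR on recovered reads, limma on TPM, the replicate block, and each replicate or line left out. Intervals of read ratios cover counting error only.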

Additional observations from a re-analysis of the deposited data

Results flagged for a closer look

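In 110 groups of 4 wells tested, 5 had a highest or lowest well that stood apart by Dixon's criterion at 95%. For normally distributed values chance alone gives this in about 1 group in 20. That rate does not hold where the other wells are all at 0, since any read in the last well then stands apart. All 5 flagged wells are at few reads. SP5 in low purity well 4 of day 0 was 0.303 TPM (3 reads) with the other wells at 0. SP5 in low purity well 2 of day 8 was 1.51 TPM (15 reads), with the others between 0.402 and 0.534 TPM. DKK4 in low purity well 2 of day 4 was 1.41 TPM (12 reads), with the others between 0.727 and 0.797 TPM. NOTUM in high purity well 4 of day 0 was 0.0872 TPM and in low purity well 3 of day 0 it was 0.200 TPM, each from 1 read, with the others at 0.

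The change of 4 members differed between the WTC11 differentiations by the interaction test of limma, high minus low on the log2 scale. These were AXIN2 from day 4 to 6 (-1.93), and LEF1 (1.48), SP5 (-1.68) and DKK1 (-4.58) from day 8 to 16.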

How the results depend on the processing

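Of 69 calls on single members, 946 of 963 alternative values kept the call, 17 lost it and 0 changed sign. Those kept include the values with the adjusted p alone, where only the fold was dropped and no call could be lost. Of 191 results not called, 86 of 2637 alternative values became calls, and 0 became calls of the opposite sign. Changes of sign short of a call were not counted there. Counts of called members moved by over 1.5 times in 13 of 26 comparisons. Without TMM factors, the high minus low count was 1 on day 13 and 2 on day 16. With a pseudocount of 0.1 it was 3 on day 16, and 1 member's day 0 to 2 change differed between the differentiations. With the adjusted p alone the high minus low counts on days 2, 4, 6, 8, 13 and 16 were 5, 6, 5, 8, 4 and 6, and the counts of changes that differed between the differentiations were 3 (day 0 to 2), 6 (day 2 to 4), 3 (day 4 to 6) and 5 (day 8 to 16). In edgeR on recovered reads the counts were 2 on day 4, 2 on day 16 and 2 for the day 4 to 6 difference. Leaving out each well or line gave 0 to 2 on day 4, 2 to 3 on day 6, 1 to 2 on day 16, 0 to 1 for the day 2 to 4 difference, 2 to 4 for the low purity change from day 4 to 6, 2 to 6 for RNA-only stage 2 to 3 and 0 to 1 for high minus low at stage 3. The cause was not tested.

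Well numbers did not pair high with low purity wells. Over 16 pairs of wells of the same day and number, the correlation of deviations from the group means ran from -0.013 to 0.032, 0 over 0.1. These correlations cannot show whether well numbers pair across days within a differentiation. The replicate block by well number changed 0 of 170 member calls, and its counts equalled those without it (9, 9, 5, 9, 7 and 4 for the changes). Without the replicate block by line or differentiation, 1 of 90 RNA-only member calls was lost, NOTUM from stage 2 to 3 (-1.69, adjusted p = 0.057). The calls of TCF7 from stage 1 to 2 (0.81) and DKK4 from stage 2 to 3 (-2.42) were lost in limma on TPM. Members at under 10 reads a well (SP5 and DKK4 late, NOTUM and 4 others on day 0) limit the depth of their comparisons.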

Other observations

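Day 10 had 1 high purity library and was left out of the comparisons. LEF1 stood at 22.9 TPM in that library and at 64.8 to 73.2 TPM in the 4 low purity wells. DKK1 stood at 24.2 TPM against 12.9 to 18.7 TPM. SP5 stood at 1.67 TPM against 0.387 to 1.60 TPM.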
